A study of Homo sapiens with 2 samples.

Results

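The genes that encode 10 subunits of the Polycomb complexes, EZH1, EZH2, EED, SUZ12, JARID2, RING1, RNF2, BMI1, CBX2 and KDM2B, were examined in H9 cells, an established line of human embryonic stem cells. They were chosen by name from the 19970 protein-coding genes of chromosomes 1 to 22 and X, and each was taken with its RefSeq interval and 10000 bp on either side. The series holds 1 group, undifferentiated and untreated H9 cells grown on Matrigel in mTeSR medium, with 2 replicates and no other genotype, treatment or time. The assay was ATAC-Me, in which a transposase places sequencing adapters into accessible chromatin and unmethylated cytosines are then converted, so that 1 library gives both accessibility and CpG methylation. The study set out to show how such libraries are made and what can be read from them. H9 is a single cell line, and its labels do not say whether the replicates are separate cultures, so the spread given here may be technical.

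Polycomb proteins keep genes silent during development by marking histones. In PRC2, EZH2 or its paralogue EZH1 methylates a lysine in the tail of histone H3, SUZ12 holds the core together, EED binds the methylated lysine, and JARID2 is an accessory subunit that helps to bring the complex to its targets. In PRC1, RING1 or RNF2 attaches ubiquitin to histone H2A, a PCGF protein such as BMI1 pairs with it, CBX2 binds methylated H3 through its chromodomain, and KDM2B carries a zinc finger that binds unmethylated CpG DNA and brings a variant PRC1 to CpG islands. In embryonic stem cells these complexes sit on many developmental genes. Here it is the genes of the subunits themselves that were measured, not the places where the proteins bind.

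The replicates held 29270697 and 52758656 CpG reads and covered 31.2% and 58.3% of the 29175448 CpGs listed. The peak list, 1 for the group, held 46980 peaks with a median signal of 541 in the peak caller's own unit. Methylation was low at the starts of most genes, so counts are set beside 15100 autosomal protein-coding genes with a start in the RefSeq promoter table. Markers of the labelled cell type were checked by the same measures. Of 8 autosomal pluripotency markers, 7 had a peak at the start, or 87.5%, beside 63.5% of all genes. Under 20% in both replicates were 6 of 7 measured starts, or 85.7%, beside 91.4% of all measured starts, so low start methylation did not set these markers apart. The SOX2 start, for example, was at 0.585% and 1.80% in replicates 1 and 2. DNMT3B stood apart at 43.9% and 49.7%, and the POU5F1 start had no read. Of 6 markers of differentiated cells, 2 had a peak at the start, COL1A1 and COL1A2, or 33.3%. Of their 3 measured starts, KRT5 was at 91.8% and 84.8%, COL1A1 at 37.5% and 19.5%, and COL1A2 at 4.68% and 1.76%.

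Upstream sequences of 7 starts are shown because they set an upstream window with few CpGs at EED, which had a strong peak, beside CpG-dense windows at BMI1 and COMMD3, where accessibility was weak. Each is the 250 bases before a start, 5′ to 3′ on the strand of the gene, from RefSeq in GRCh38.p14, with CpG dinucleotides in capitals. EZH2 is at chr7:148884292-148884541 on the minus strand and EED at chr11:86244503-86244752 on the plus strand. The JARID2 first start is at chr6:15245819-15246068 and its second at chr6:15248605-15248854, both on the plus strand. BMI1 is at chr10:22320849-22321098 and its upstream neighbour COMMD3 at chr10:22316138-22316387, both on the plus strand, and the inner start of KDM2B is at chr12:121467379-121467628 on the minus strand.
EZH2: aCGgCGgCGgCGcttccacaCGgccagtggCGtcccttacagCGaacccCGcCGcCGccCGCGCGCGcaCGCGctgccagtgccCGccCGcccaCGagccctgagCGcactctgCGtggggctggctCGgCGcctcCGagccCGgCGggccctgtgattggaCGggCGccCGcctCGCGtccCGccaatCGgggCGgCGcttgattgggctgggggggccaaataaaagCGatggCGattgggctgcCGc
EED: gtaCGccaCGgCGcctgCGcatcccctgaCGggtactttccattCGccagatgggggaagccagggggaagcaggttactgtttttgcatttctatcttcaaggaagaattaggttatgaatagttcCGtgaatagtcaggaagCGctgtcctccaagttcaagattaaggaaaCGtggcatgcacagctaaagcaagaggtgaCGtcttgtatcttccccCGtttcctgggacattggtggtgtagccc
JARID2 first start: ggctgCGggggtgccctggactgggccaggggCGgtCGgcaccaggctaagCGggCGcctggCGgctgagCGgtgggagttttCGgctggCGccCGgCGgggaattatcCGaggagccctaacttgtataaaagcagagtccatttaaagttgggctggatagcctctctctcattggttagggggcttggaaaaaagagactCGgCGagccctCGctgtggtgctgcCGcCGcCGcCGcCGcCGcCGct
JARID2 second start: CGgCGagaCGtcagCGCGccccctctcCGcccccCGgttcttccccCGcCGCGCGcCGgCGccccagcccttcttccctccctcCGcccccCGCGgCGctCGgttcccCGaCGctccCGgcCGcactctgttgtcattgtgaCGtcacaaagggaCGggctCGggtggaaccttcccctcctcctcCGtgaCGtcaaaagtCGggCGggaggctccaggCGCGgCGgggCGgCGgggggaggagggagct
BMI1: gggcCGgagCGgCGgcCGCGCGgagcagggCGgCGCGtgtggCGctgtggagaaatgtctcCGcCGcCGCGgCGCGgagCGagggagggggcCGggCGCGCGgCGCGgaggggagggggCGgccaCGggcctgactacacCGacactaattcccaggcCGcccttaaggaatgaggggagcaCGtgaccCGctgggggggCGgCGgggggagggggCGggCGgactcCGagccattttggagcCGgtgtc
COMMD3: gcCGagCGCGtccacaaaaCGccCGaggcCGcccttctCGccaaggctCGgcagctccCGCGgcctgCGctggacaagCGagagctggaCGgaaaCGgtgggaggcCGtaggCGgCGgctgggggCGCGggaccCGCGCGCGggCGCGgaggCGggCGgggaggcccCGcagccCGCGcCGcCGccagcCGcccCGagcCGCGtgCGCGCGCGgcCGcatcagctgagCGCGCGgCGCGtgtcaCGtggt
KDM2B inner start: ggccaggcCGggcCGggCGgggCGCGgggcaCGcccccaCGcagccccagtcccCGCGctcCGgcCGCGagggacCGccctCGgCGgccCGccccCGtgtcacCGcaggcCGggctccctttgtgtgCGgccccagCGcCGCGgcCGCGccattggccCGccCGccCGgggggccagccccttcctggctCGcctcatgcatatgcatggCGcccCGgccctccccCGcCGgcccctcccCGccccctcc

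The number of CpGs in these windows was 38 at EZH2, 11 at EED, 22 and 34 at the first and second JARID2 starts, 35 at BMI1, 47 at COMMD3 and 34 at the inner KDM2B start, beside a median of 17 over all listed promoters. EED stood at the 35.3rd percentile of promoters and COMMD3 at the 99.7th. These counts cover the 250 upstream bases only. The peak at the EED start held 76 CpGs, or 7.63 per 100 bp, beside 8.24 per 100 bp at the EZH1 start peak and 8.07 at the first JARID2 start peak. All 7 windows were nearly free of methylation. At EZH2, 2 of 409 CpG reads in replicate 1 and 12 of 915 in replicate 2 were methylated, and at EED 2 of 258 and 5 of 138. At BMI1 it was 1 of 106 and 5 of 269. No methylated read was seen at COMMD3 among 92 and 358, which allows shares of up to 3.26% and 0.838%. The letters GGGCGG, a GC box, were searched on both strands and occurred in 56.1% of all listed promoters of the same 250 bases. They were in each of these windows except that of EED. CCAAT, searched likewise, is in 34.2% of promoters and here in EZH2, EED, the first JARID2 window and the inner KDM2B window. TGACGTCA, the palindromic cyclic AMP response element, is in 2.33% of promoters and was found in the second JARID2 window. None of these motifs contains another. Such matches describe the letters and not a bound factor.

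The starts of the PRC2 genes were open and unmethylated in both replicates. Methylation here is the share of CpG reads called methylated within 500 bp of the start, called the start region. EZH2 (chromosome 7, 148807383 to 148884291, minus strand), the catalytic subunit, had 0.628% and 1.19% (0.909% ± 0.397, SD, n = 2) from 955 and 1766 reads in replicates 1 and 2. EED (chromosome 11, 86244753 to 86287615, plus strand), the reader subunit, had 0.462% and 1.01% (0.738% ± 0.391, SD, n = 2) from 1300 and 1183 reads. Both genes were low in each library. SUZ12 (chromosome 17, 31937007 to 32001038, plus strand), the scaffold, had 0.759% and 1.39% (1.07% ± 0.446, SD, n = 2). JARID2 (chromosome 6, 15246069 to 15522042, plus strand) had 0.523% and 1.34% (0.931% ± 0.577, SD, n = 2). EZH1 (chromosome 17, 42700275 to 42745040, minus strand), the alternative catalytic subunit, had 0.240% and 2.96% (1.60% ± 1.92, SD, n = 2), the widest spread between replicates among the starts measured. SUZ12 has a pseudogene copy, SUZ12P1, and how reads of the copies were assigned is not given in the sources used here, so its values are uncertain.

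Each of these 5 genes had a peak at its start, meaning a summit within 1000 bp. The strongest were at JARID2, with signal 1982, above 92.0% of all peaks, and at EED, with signal 1943 over 996 bp. EZH1 had signal 1571, SUZ12 1129 and EZH2 1024 over 489 bp. Methylation within the EZH2 peak was 0.288% and 1.16%, and within the EED peak 0.369% and 0.951%. The JARID2 summit lay at −107 bp from the start and the EED summit at −264 bp.

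The PRC1 genes were also low in methylation where they were read, but not all of them had a peak. RNF2 (chromosome 1, 185045558 to 185102603, plus strand), a ubiquitin ligase, had 2.28% and 2.50% (2.39% ± 0.157, SD, n = 2) from 1139 and 1517 reads, and a start peak of signal 1309. BMI1 (chromosome 10, 22321099 to 22331706, plus strand), the PCGF partner, had 1.28% and 1.60% (1.44% ± 0.227, SD, n = 2) from 312 and 686 reads, and no peak within 1000 bp. CBX2 (chromosome 17, 79777311 to 79787983), the chromodomain subunit, had 2.52% and 1.52% (2.02% ± 0.707, SD, n = 2) from 119 and 263 reads, and no peak either. The CBX2 start was taken as the CpG-denser end of the gene, on the plus strand. KDM2B (chromosome 12, 121408461 to 121582279, minus strand), the CpG-binding subunit, had 0.546% and 1.18% (0.863% ± 0.448, SD, n = 2) at its first listed start, with a peak of signal 206, which ranks above 1.43% of all peaks. The RefSeq interval of KDM2B reaches further upstream than this listed start, and a stronger peak, of signal 878, lies just outside that end. BMI1 and CBX2 therefore had unmethylated starts without a called peak, as did 62.8% of all measured starts that lacked a peak.

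No value could be given for RING1 (chromosome 6, 33208500 to 33212716, plus strand), the other ubiquitin ligase. Its start region holds 90 CpGs and none was read in either replicate. Over the whole interval with flanks, 582 CpGs had 0 reads in replicate 1 and 1 read in replicate 2. The nearest reads lay 210890 bp upstream and 13486 bp downstream of the start, and the nearest peak summit was 303762 bp from it. Its neighbours RXRB, SLC39A7 and HSD17B8 also had 0 reads at their starts. Between 29 and 34 Mb of chromosome 6, 134 of 157 gene starts had no read, beside 11 of 771 on the rest of the chromosome and 4.81% of all listed genes. The CpG tables list alternate contigs of chromosome 6 too, with up to 872 reads in replicate 1 and 1690 in replicate 2 on any 1 contig. Their part in the missing reads was not tested. RING1 is thus unread, which says nothing of whether it is open or methylated.

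Of the 9 starts measured, 9 were under 20% in both replicates, where 91.4% of all measured starts were. A start peak was found at 7 of the 10 genes, where 63.5% of all genes had one. The median start was 1.01% ± 0.538 over the Polycomb genes and 1.16% ± 0.690 over all genes (SD, n = 2). In replicates 1 and 2 it was 0.628% and 1.39% over the Polycomb genes, and 0.673% and 1.65% over all genes. The gap was small, had the same direction in both replicates and was not tested. From low to high the mean levels ran EED, KDM2B, EZH2, JARID2, SUZ12, BMI1, EZH1, CBX2 and RNF2. No neighbours in that order differed by more than the larger of their SDs. At the ends of the order, the Wilson 95% intervals of RNF2 and EED did not overlap in replicate 1 (1.56% to 3.32% at RNF2, 0.212% to 1.0% at EED) or in replicate 2 (1.83% to 3.42% at RNF2, 0.581% to 1.77% at EED). These intervals cover counting error only, and a read that spans several CpGs is counted at each, so they are too narrow. The order also moved with the window. Within 250 bp RNF2 was at 0.916% and EED at 1.02%, so these 2 changed places, and KDM2B was at 1.75%. Within 1000 bp RNF2 was at 3.22%, EZH1 at 3.52% and EZH2 at 1.70%.

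**Figure D1:**
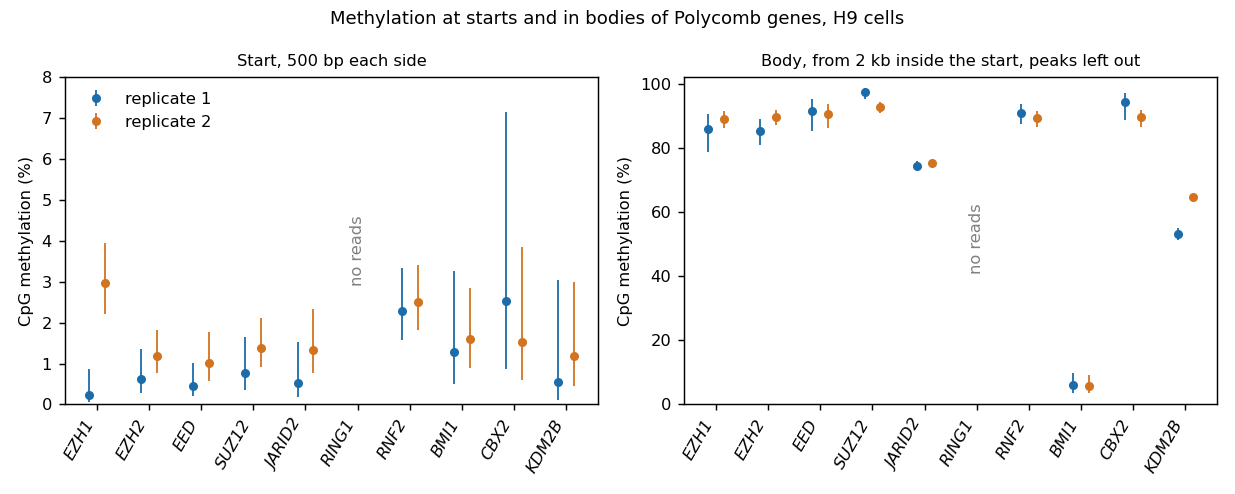
Methylation in percent at the start region and in the gene body of each Polycomb gene, with 1 point per replicate and Wilson 95% intervals as bars, on linear axes that differ in scale. The 9 measured starts lie under 3%, while the bodies lie above 50% except for BMI1 at 5.91% and 5.80%. RING1 has no point because it had no reads.

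Coverage in the same 2 libraries gave a second view of accessibility, which needs no called peak at the start. Reads per CpG at the start were divided by those 2000 to 10000 bp away on either side, with peaks left out. EED had 17.8 and 16.2 reads per CpG, 53.4-fold and 14.8-fold over its surroundings in replicates 1 and 2. EZH1 had 33.5-fold and 19.4-fold, so EED was higher in replicate 1 and EZH1 in replicate 2. SUZ12 stood at 17.6-fold and 11.8-fold, RNF2 at 15.7-fold and 9.77-fold, and EZH2 at 11.4-fold and 12.2-fold. The genes of PRC1 with no start peak or a weak one were lower. CBX2 had 5.29-fold and 2.72-fold, KDM2B 2.95-fold and 2.84-fold, and BMI1 1.52-fold and 2.17-fold, at the 3.51st and 9.14th percentiles of all genes. JARID2 also stood low, at 5.17-fold and 3.99-fold, although its peak was the strongest of the 10 genes. It had 9.90 and 15.4 reads per CpG at its start, but 1.92 and 3.87 in its surroundings. The surroundings had 1.51 and 2.91 at KDM2B and 1.49 and 2.31 at BMI1, and fewer in both replicates at the other measured genes. The surroundings themselves were partly unmethylated at JARID2 (24.7% and 25.0%), at KDM2B (40.9% and 41.3%) and at BMI1 (6.62% and 7.6%), and over 80% at the other 6 measured genes. The median over the measured Polycomb genes was 10.6-fold ± 1.14, and over all genes 12.9-fold ± 5.74 (SD, n = 2).

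Several of the genes have further starts in RefSeq, and these were unmethylated too. The second JARID2 start, 2786 bp inside the first, had 1.07% and 2.32% and a separate peak of signal 333. The inner start of KDM2B, 113645 bp inside the first, had 0.542% and 1.79% from 1108 and 2678 reads. Its peak had signal 1158, against 206 at the first start. The second EZH2 start, 806 bp inside, had 2.50% and 1.03% and shared the peak of the first. At BMI1 the second start, 857 bp inside, had 0 methylated of 163 reads, which allows up to 1.84%, and 3 of 463, with no peak within 1000 bp. COMMD3, whose start lies at −4711 bp from that of BMI1 and is shared by the readthrough gene COMMD3-BMI1, had 0.261% and 0.253% with a peak of signal 262.

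Low methylation reached different distances from these starts. Counted in bins of 200 bp under 20% in both replicates with at least 5 reads in each, the stretch measured 2400 bp at CBX2, 2000 bp at EED and JARID2, 1800 bp at EZH2, 1400 bp at RNF2 and KDM2B, 1200 bp at SUZ12 and 1000 bp at EZH1 and BMI1. The median was 1400 bp. Bins short of reads also end a stretch. They did so on both sides at EED, SUZ12, JARID2 and BMI1, and on a single side at EZH2, RNF2, CBX2 and KDM2B. Only at EZH1 did methylation end it on both sides. Over the whole run from 5500 bp before to 5000 bp after the BMI1 start, peaks included, 557 CpGs were methylated at 0.672% and 1.40% from 1487 and 2991 reads. That run holds the COMMD3 start and both BMI1 starts, and from −4000 to −1000 bp it had just 19 and 49 reads outside peaks. Between 2000 and 5000 bp inside BMI1 the values were still 1.01% and 2.76%. CBX2 had a sharper edge: its first 2000 bp had 0.894% and 1.72% over 193 CpGs, and 2500 to 4500 bp inside it had 100% and 90.2% from 18 and 92 reads. On the upstream side, 1000 to 3000 bp before the CBX2 start, it was 76.9% and 86.4% from 13 and 88 reads. Reads at CBX2 were densest not at the start but 500 to 1000 bp inside, with 7.30 and 16.3 per CpG. These lengths depend on the bins. With bins short of reads passed over, BMI1 had 30000 bp, JARID2 9200 bp and KDM2B 2000 bp, and the other genes kept their lengths. The BMI1 length reaches 24800 bp downstream, past the end of the gene, because bins short of reads do not end it. From 5000 bp inside to its end, BMI1 was at 52.4% and 40.9% outside peaks, on 21 and 22 reads. The 30000 bp can therefore not be read as unmethylated throughout. With bins of 100 bp, CBX2 had 400 bp, KDM2B 300 bp, JARID2 900 bp and EED 1300 bp, and CBX2 also had 400 bp with a limit of 10%, so the order of the genes by length is not fixed.

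**Figure D2:**
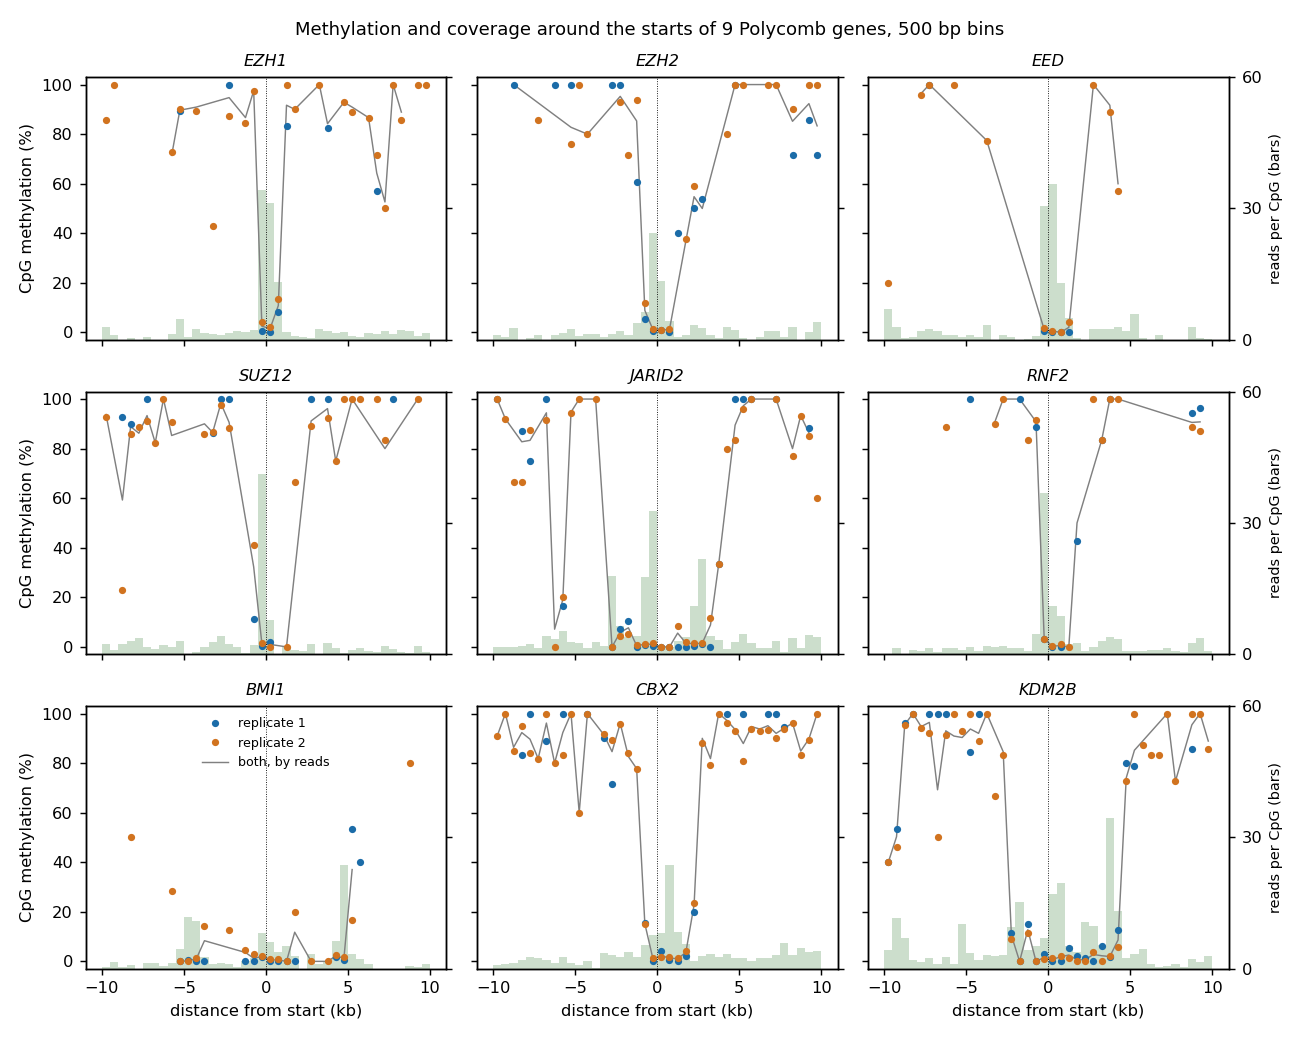
Methylation in percent along each measured gene around its start, in bins of 500 bp, with points for the 2 replicates where at least 5 reads were present, a grey line for both replicates weighted by reads, and bars for reads per CpG summed over both on the right axis. The dip is narrow at EZH1 and SUZ12, and at BMI1 low points run from about 5000 bp before to 5000 bp after the start.

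The bodies of most of the genes were highly methylated, and BMI1 was the exception. The body ran from 2000 bp inside the start to the end of the gene, with peaks left out. BMI1 had 5.91% and 5.80% from 220 and 276 reads, a mean of 5.85% ± 0.0792 (SD, n = 2), at the 0.980th percentile of all bodies measured. It was the 1 body of 9 under 20% in both replicates, where 1.87% of all bodies were. BMI1 is short, at 10608 bp, so the offset matters: from 5000 bp inside, the body was at 46.6%, on 21 and 22 reads. With peaks kept it was at 2.59%, and with CpGs weighted equally at 2.43%. Start minus body was −4.41 ± 0.306 points at BMI1 (SD, n = 2).

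Among the other bodies, SUZ12 was highest with 97.4% and 92.7%, at the 98.4th percentile. EED had 91.4% and 90.5%, CBX2 94.2% and 89.4%, RNF2 90.9% and 89.2%, EZH2 85.3% and 89.5%, and EZH1 85.7% and 89.1%. JARID2 had 74.3% and 75.3%. KDM2B had 53.1% and 64.5%, a mean of 58.8% ± 8.08 (SD, n = 2), at the 9.68th percentile. With CpGs of at least 5 reads weighted equally, KDM2B was at 24.6%, JARID2 at 49.6% and EED at 59.7%, and with peaks kept KDM2B was at 43.5%. Start minus body ran from −93.9 ± 3.75 points at SUZ12 and −90.2 ± 1.05 at EED to −73.9 ± 0.102 at JARID2 and −57.9 ± 7.64 at KDM2B (SD, n = 2), each larger than the spread between replicates. With equal weights it was −23.4 points at KDM2B, −48.5 at JARID2, −58.9 at EED and −1.34 at BMI1. The median difference was −86.1 ± 0.847 points. An exact sign-flip test over 2 replicates cannot give a two-sided p under 0.5, so none is given. The median body was 87.4% ± 2.45 over the Polycomb genes and 84.8% ± 2.69 over all genes (SD, n = 2). In replicates 1 and 2 it was 85.7% and 89.2% over the Polycomb genes, and 82.9% and 86.7% over all genes. The gap was small, had the same direction in both replicates and was not tested.

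The 2 longest genes differed in how methylation ran along them. KDM2B spans 173819 bp. It was at 1.79% and 1.75% in the first 4500 bp, at 84.2% and 89.5% from 4500 to 10000 bp, and at 56.2% and 68.3% from 10000 to 100000 bp. That last stretch was not even. Its bin from 40000 to 45000 bp had 6.32% and 10.6% over 210 CpGs and held 522 of 1462 and 842 of 3459 reads. The other bins of 5000 bp in the stretch were at 66% or higher in both replicates. Around the inner start KDM2B was low again, at 18.1% and 28.6% within 5000 bp. More than 5000 bp past that start it was at 92.6% and 91.4%. Peaks were left out of these values except in the first 4500 bp. Of 33 bins of 5000 bp with at least 20 reads in each replicate, 3 were under 20% in both and 21 over 80% in both. JARID2 spans 275974 bp and had 1 such low bin and 40 high ones among 55. It was not even past its starts either. Its bin from 20000 to 25000 bp had 19.8% and 44.2%, and that from 150000 to 155000 bp 51.2% and 51.5%. Between its 2 starts JARID2 was at 0.538% and 0.946%, and 4000 to 10000 bp inside it was at 94.8% and 90.3%.

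**Figure D3:**
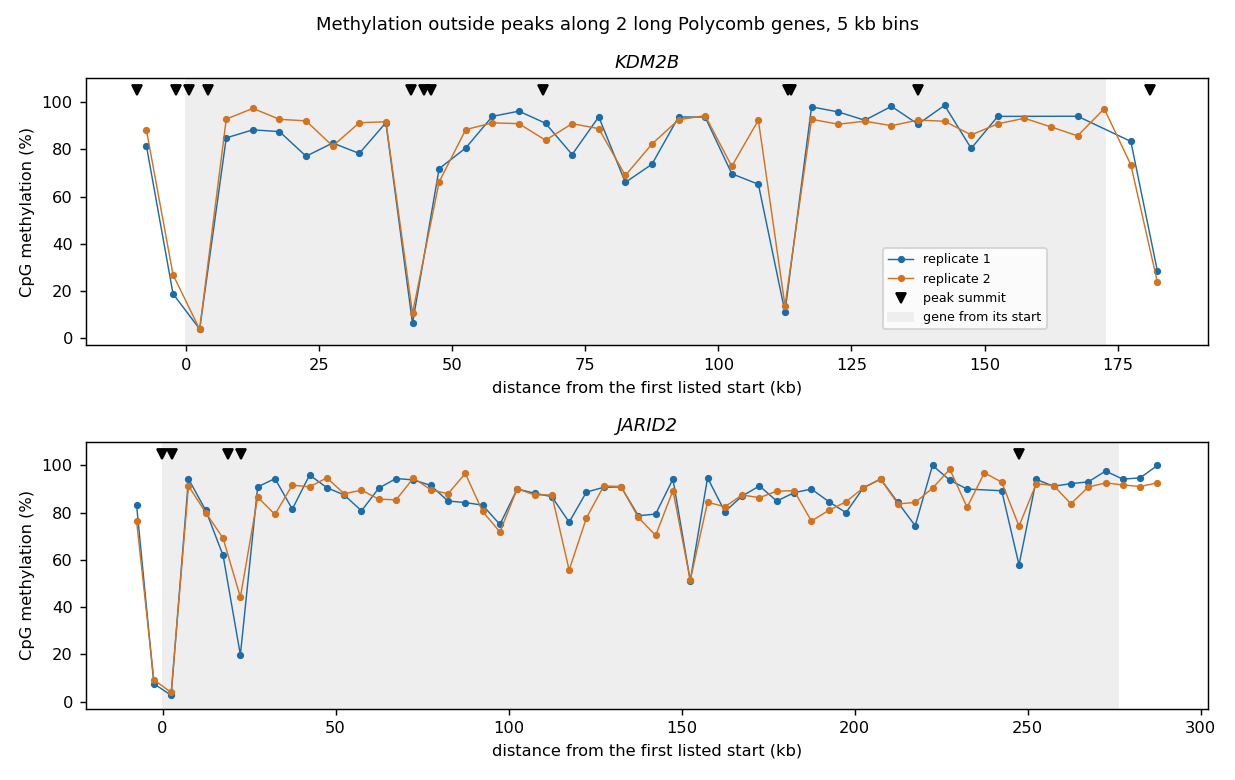
Methylation in percent along JARID2 and KDM2B in bins of 5000 bp from the first start, for both replicates, with CpGs in peaks left out, peak summits marked and the gene shaded. Points need 20 reads. KDM2B dips at its first start, 40000 to 45000 bp inside and at its inner start. JARID2 is low in the bin of its starts and dips less deeply further inside, as at 20000 to 25000 bp.

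The 10 intervals held 27 peaks. KDM2B had 12, JARID2 5, EED, SUZ12 and BMI1 2 each, EZH1, EZH2, RNF2 and CBX2 1 each, and RING1 none. An interval with 12 or more peaks was rare: 0.768% of all genes, and 0.735% of 1496 genes within 1.5 times the length of KDM2B, had as many. Of the 27, 10 lay at a start of a Polycomb gene, 4 at the start of another protein-coding gene, 11 inside a gene and 2 in a flank. Of these, 25 had 10 or more reads over their CpGs in both libraries and could be measured. Under 20% in both replicates were 21 of the 25, beside 70.2% of all peaks, and none was over 80% in both, beside 0.391%. Peaks at starts make up 14 of the 21. Away from protein-coding starts, 7 of 11 were under 20%, beside 58.0% of all such peaks, and the other 4 were between 20% and 80% in both replicates, beside 28.3%.

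Inside KDM2B, unmethylated and partly methylated peaks alternated. A peak 4004 bp inside the first start, with signal 1324, had 2.50% and 1.20% over 5 CpGs. A pair 44666 and 45963 bp inside had 2.34% and 1.15% over 15 CpGs, and 0 methylated of 16 reads, which allows up to 18.8%, and 2 of 24 over 3 CpGs. Close to them, 42178 bp inside, a peak of signal 560 stood at 69.0% and 61.0% from 29 and 41 reads. Another at 67045 bp had 40.6% and 35.7% from 64 and 84 reads. The last peak of the gene, 137564 bp inside with signal 728, had 66.3% and 44.0% from 101 and 207 reads. In the upstream flank, at −1907 bp from the first listed start, a peak of signal 878 had 0 methylated of 44 and 26 reads, which allows up to 6.82% and 11.5%. This peak spans 121582696 to 121583036, and the RefSeq interval of KDM2B reaches 121582279 on that side. If that end were taken as the start, the peak would count as a start peak. The strongest peak of the KDM2B interval, with signal 2251, belonged to the start of RNF34, a neighbouring ubiquitin ligase gene, at 0.236% and 0.556%.

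Peaks inside the other genes were few. Inside JARID2, a peak 22571 bp from the first start had 0 methylated of 49 and 72 reads over 6 CpGs, which allows up to 6.12% and 4.17%. A peak 18909 bp inside held 1 CpG with 8 reads in each replicate, none methylated, which allows up to 37.5%, and 1 at 247560 bp held 6 and 3 reads, both too few for the minimum. Inside EED, 29945 bp from the start, a peak of signal 411 had 8 methylated of 16 reads and 10 of 15 over 3 CpGs. BMI1 had a peak 4783 bp inside, of signal 669 over 43 CpGs, at 0.769% and 1.47%. In the CBX2 flank, the peak of signal 1729 sat at the start of CBX8, another chromodomain subunit of PRC1, whose start region had 0.567% and 1.60%. The second SUZ12 peak, of signal 715, lay at the neighbouring starts of LRRC37B and LOC124903972.

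**Figure D4:**
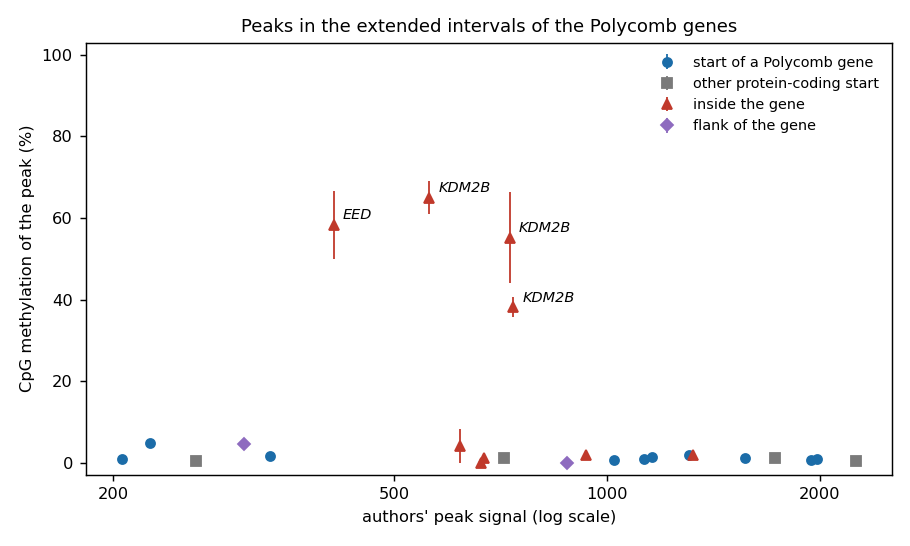
Mean methylation of the peaks in the intervals, in percent, against the signal of the peak caller on a log axis, coloured by place, with bars that reach the values of the 2 replicates. Peaks at starts lie near 0% at every signal, and the 4 peaks between 20% and 80% in both replicates lie inside EED and KDM2B.

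Fisher's exact test, run two-sided and adjusted by Benjamini-Hochberg over 40703 autosomal peaks, set the methylated reads of the replicates against each other. It called 7.89% of all peaks at 0.05, and 7.19% were called as higher in replicate 2. In the Polycomb intervals 2 of 25 were called. At the EZH1 start peak replicate 1 had 3 methylated of 906 reads and replicate 2 had 31 of 1553 (adjusted p = 0.0112 by Fisher's exact test), and with the general shift between libraries taken into account the adjusted p was 0.132. At the KDM2B peak 137564 bp inside, replicate 1 was higher (adjusted p = 0.0077 by Fisher's exact test), against the direction of the shift. There, 3 of 15 CpGs, picked out after their values were seen as under 30% in both replicates, took 24.8% of the reads in replicate 1 and 53.1% in replicate 2. The other 12 CpGs were at 84.2% and 78.4%. Reads shared between CpGs make these p-values too small.

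Most further Polycomb genes had open, unmethylated starts as well. Of a list of 49 partner genes, 43 are autosomal. Start regions were measured for 40 of them, and 40 were under 20% in both replicates, beside 91.4% of all measured starts, with a median of 1.14% ± 0.832 (SD, n = 2). A start peak was found at 35 of the 43, or 81.4%, beside 63.5% of all genes. These were 12 of 15 further PRC1 genes, 13 of 13 variant PRC1 partners, 7 of 8 genes of the deubiquitinase complex PR-DUB, and 3 of 7 PRC2 partners. The lowest starts were those of PCGF6 at 0.445%, FBRS at 0.521% and RBBP4, a histone chaperone of PRC2, at 0.526%. The highest were PHF19, a PRC2 accessory protein, with 6.25% and 4.42%, E2F6 with 3.91% and 4.87%, and WDR5 with 0.645% and 6.34%. Without a start peak were PCGF5, ASXL3, AEBP2, SCMH1, PHF19, PHF1, EPOP and PCGF2, of which PHF1, EPOP and PCGF2 had no reads.

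CBX8, the neighbour of CBX2 that was singled out here after its values were seen, also had a low body, as BMI1 did. It was at 2.38% and 4.07%, while the CBX2 body was at 94.2% and 89.4%. Among 10 writers and erasers of DNA methylation, 9 starts were measured, with a median of 1.45% ± 0.890 (SD, n = 2). Of these, 8 were under 20% in both replicates, or 88.9%, beside 91.4% of all measured starts. The exception was the outermost listed start of DNMT3B, which holds 11 CpGs. A start peak was found at 7 of the 10, the same number as for the 10 Polycomb genes. That is 70%, beside 63.5% of all genes.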

How the data were processed

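The deposited files are 2 CpG tables, 1 per replicate, and 1 peak list for the group. Each CpG table gives a methylation fraction and a read count as the authors deposited them. The authors' peak list gives a score, a signal, a summit position and −log10 q-values. The submitters' processing notes name Trim Galore, Genrich and hg38 (GRCh38). Not given in the sources used here are the mapper, the methylation caller, versions, treatment of duplicates and the way replicates were combined. The score was not used, and the signal only describes and ranks peaks.

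Fraction times reads gave whole methylated reads, and CpGs with 0 reads were left out. File positions count from 0 and were raised by 1; CpGs were then found in the files at 323375 of 323375 CG positions of the RefSeq promoter sequences. Methylation is methylated reads over reads in percent per replicate, then mean and SD (n = 2). The start is the outermost start listed in the RefSeq promoter table (GRCh38.p14), for CBX2 and 5 further genes the CpG-denser end. At KDM2B the RefSeq interval reaches further upstream than the listed start. Chromosome 8 is not in the promoter table. Starts and bodies needed 20 reads in each replicate and peaks 10. Intervals at 95% are Wilson's. Reads carry no molecular identifiers, so intervals and limits from 0 counts (3 reads) cover counting error only.

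The genes, lists and tests were chosen with earlier results of these data known. Named were all 10 genes with their peaks and neighbouring starts, and from the wider list the 3 lowest and 3 highest starts and those without a peak; the body of CBX8 was singled out after its values were seen. One item of the wider list is not reported here. Alternatives covered windows, read minimums, weighting, flanks, a library offset and each replicate left out; 2 were added after seeing the data, the passing over of bins short of reads and the coverage ratio without each replicate. Python 3.11.15, NumPy 2.4.6, pandas 2.3.3, SciPy 1.17.1 and matplotlib 3.10.9 were used, and the per-peak test was tested on simulated data.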

Additional observations from a re-analysis of the deposited data

How the results depend on the processing

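No paired analysis was possible because there is 1 group. Among alternative values of the main results, 45 stayed within their limits, 10 moved and none reversed; for single genes 131 stayed and 43 moved. With CpGs weighted equally the median body was 62.9% and start minus body −61.9 points. EZH1, SUZ12 and CBX2 lacked an equal-weight body value over both replicates, so these medians do not cover the same genes as the main ones. With a 1000 bp window the median of start minus body was −84.9 points. Without flanks the genes held 15 peaks. With at least 30 reads, 2 interval peaks lay between 20% and 80% and 4 were called between replicates. With a library offset 1727 of all peaks were called, and 1 in the intervals. Bins of 100 bp gave a median stretch of 900 bp. The share of all starts under 20% was 84.8% to 91.8% when 1 replicate was left out. The causes were not tested. Body values rest on few reads per CpG, and BMI1, CBX2 and the first KDM2B start on fewer reads than the other starts.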

Other observations

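The wider Polycomb list has 6 members on chromosome X, where no peak is listed, so they entered no comparison. All 6 start regions were measured and under 20% in both replicates, as were 91.4% of all measured autosomal starts. No such share was computed for chromosome X. RBBP7, a histone chaperone, had 0.211% and 1.5%, and HCFC1 0.180% and 1.62%. OGT, the enzyme that attaches N-acetylglucosamine to proteins, had 0 methylated of 286 reads, which allows up to 1.05%, and 5.79%, and BCORL1 0.651% and 9.02%. The highest were BCOR, a scaffold of a variant PRC1, with 7.69% and 9.26% from 65 and 108 reads, and SCML2 with 6.91% and 12.6% from 246 and 420 reads. No explanation was tested.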
